A study of Homo sapiens with 12 samples.

Results

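The HOX cluster genes are homeobox transcription factor genes that lie side by side in 4 clusters, HOXA on chromosome 7, HOXB on chromosome 17, HOXC on chromosome 12 and HOXD on chromosome 2. The members were chosen by name, as the protein-coding genes called HOXA, HOXB, HOXC or HOXD plus a number, except HOXB13. They were 38 of the 20020 protein-coding genes of the annotation, with 11 in HOXA and 9 in each of the other clusters. Accessibility around them was measured by ATAC-seq, in which a transposase cuts and tags open chromatin. The cells were DU-145, a human line of castration-resistant prostate cancer, and BT-549, a human line of triple-negative breast cancer. Both carried tet-MUC1shRNA, a doxycycline-inducible short hairpin RNA against MUC1, the gene of an oncogenic transmembrane mucin. Doxminus cells received 0.1% DMSO as vehicle and Doxplus cells received doxycycline (DOX), with 3 replicates of each condition in each line and 12 libraries in all. The comparisons asked how the chromatin of these genes differed after DOX-induced silencing of MUC1 in each line, and how it differed between the lines in vehicle. No cells with a control hairpin were analysed here, so that silencing of MUC1 and exposure to DOX cannot be told apart. BT-549 medium also contained insulin, which DU-145 medium did not.

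HOX proteins set the identity of body segments in the embryo, and the order of the genes along a cluster follows the order of their expression from head to tail. Low numbers mark anterior genes and high numbers mark posterior genes, and genes of the same number in different clusters are paralogs. Polycomb proteins keep silent parts of a cluster compact, Trithorax-type methyltransferases such as KMT2A keep active parts open, and CTCF with cohesin separates both. Adult epithelia retain a HOX pattern that reflects their origin along the body axis, and this pattern is often altered in carcinomas.

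Each gene was read as a window of its gene body and 5 kb on each side, and the unit of coverage was the 100-bp bin of accessible chromatin. A window value in CPM is the sum of its bin values per 1000000 of the summed bin values of the library. Neighboring windows share bins, so that the members are not independent of each other, and in bulk cells a smaller share of open alleles and less opening per allele cannot be told apart. The summed bin values of the libraries ranged from 12370094 to 25232000 in DU-145, and in BT-549 cells from 9142900 to 13606129 with vehicle but from 2502510 to 3267024 with DOX. The peak lists held 63271 to 95487 peaks in DU-145, and in BT-549 libraries 65204 to 93929 with vehicle but 30450 to 39837 with DOX. The BT-549 DOX libraries thus stood apart in depth, and the part of depth in the BT-549 DOX results was not tested. The MUC1 window, which reads chromatin and not the silenced transcript, had 93.5, 101.5 and 91.61 CPM in DU-145 vehicle and 80.38, 88.61 and 86.42 CPM in DU-145 DOX cells (adjusted p = 0.0491, edgeR). In BT-549 it had 180.6, 215.2 and 177.2 CPM in vehicle and 186.7, 195.7 and 167.5 CPM in DOX cells (adjusted p = 0.645). Start sites of 8 epithelial genes summed to 602 to 626 CPM in DU-145 vehicle and to 57.3 to 69.7 CPM in BT-549 vehicle cells, where CDH1, EPCAM, KRT8, KRT18 and OVOL1 had no accessible bin. Those of 8 mesenchymal genes summed to 191 to 208 CPM and 473 to 503 CPM, respectively. Of the prostate luminal genes, KLK2, KLK3 and FOLH1 had no accessible bin in DU-145 cells, whereas TMPRSS2 had 19 bins with a mean of 12.02 CPM. Of the leukocyte genes, PTPRC and CD3E had none in either line, whereas CD14 had means of 13.69 CPM in DU-145 and 22.87 CPM in BT-549 vehicle cells.

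The HOX clusters were open over more sequence in BT-549 than in DU-145 cells. The windows covered 458.0 kb, of which 58.7 kb in 51 regions was accessible in DU-145 and 86.0 kb in 76 regions in BT-549 cells. These were 587 of 709366 bins and 860 of 472994 bins, respectively. The longest unbroken accessible region ran over 5.3 kb of HOXA in BT-549 cells. In HOXC, 348 bins were accessible in BT-549 and 149 in DU-145 cells, and 222 were in the BT-549 table alone. HOXD showed the reverse order, with 85 bins in DU-145 and 51 in BT-549 cells. HOXA had 208 bins in DU-145 and 335 in BT-549 cells, and HOXB had 126 in BT-549 and slightly more in DU-145 cells. The 361 bins found in both tables were 61.5% of the DU-145 HOX bins and 42.0% of the BT-549 HOX bins, against 45.3% and 67.9% over all bins of the 2 tables. Of the library sum, the HOX bins of DU-145 cells took between 0.0695% and 0.0733% with vehicle and between 0.0655% and 0.0741% with DOX. Those of BT-549 cells took between 0.0978% and 0.105% with vehicle and between 0.12% and 0.127% with DOX. The regions were called in each line by the authors from libraries of unequal depth, and the part of depth in the number of bins was not tested.

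**Figure D1:**
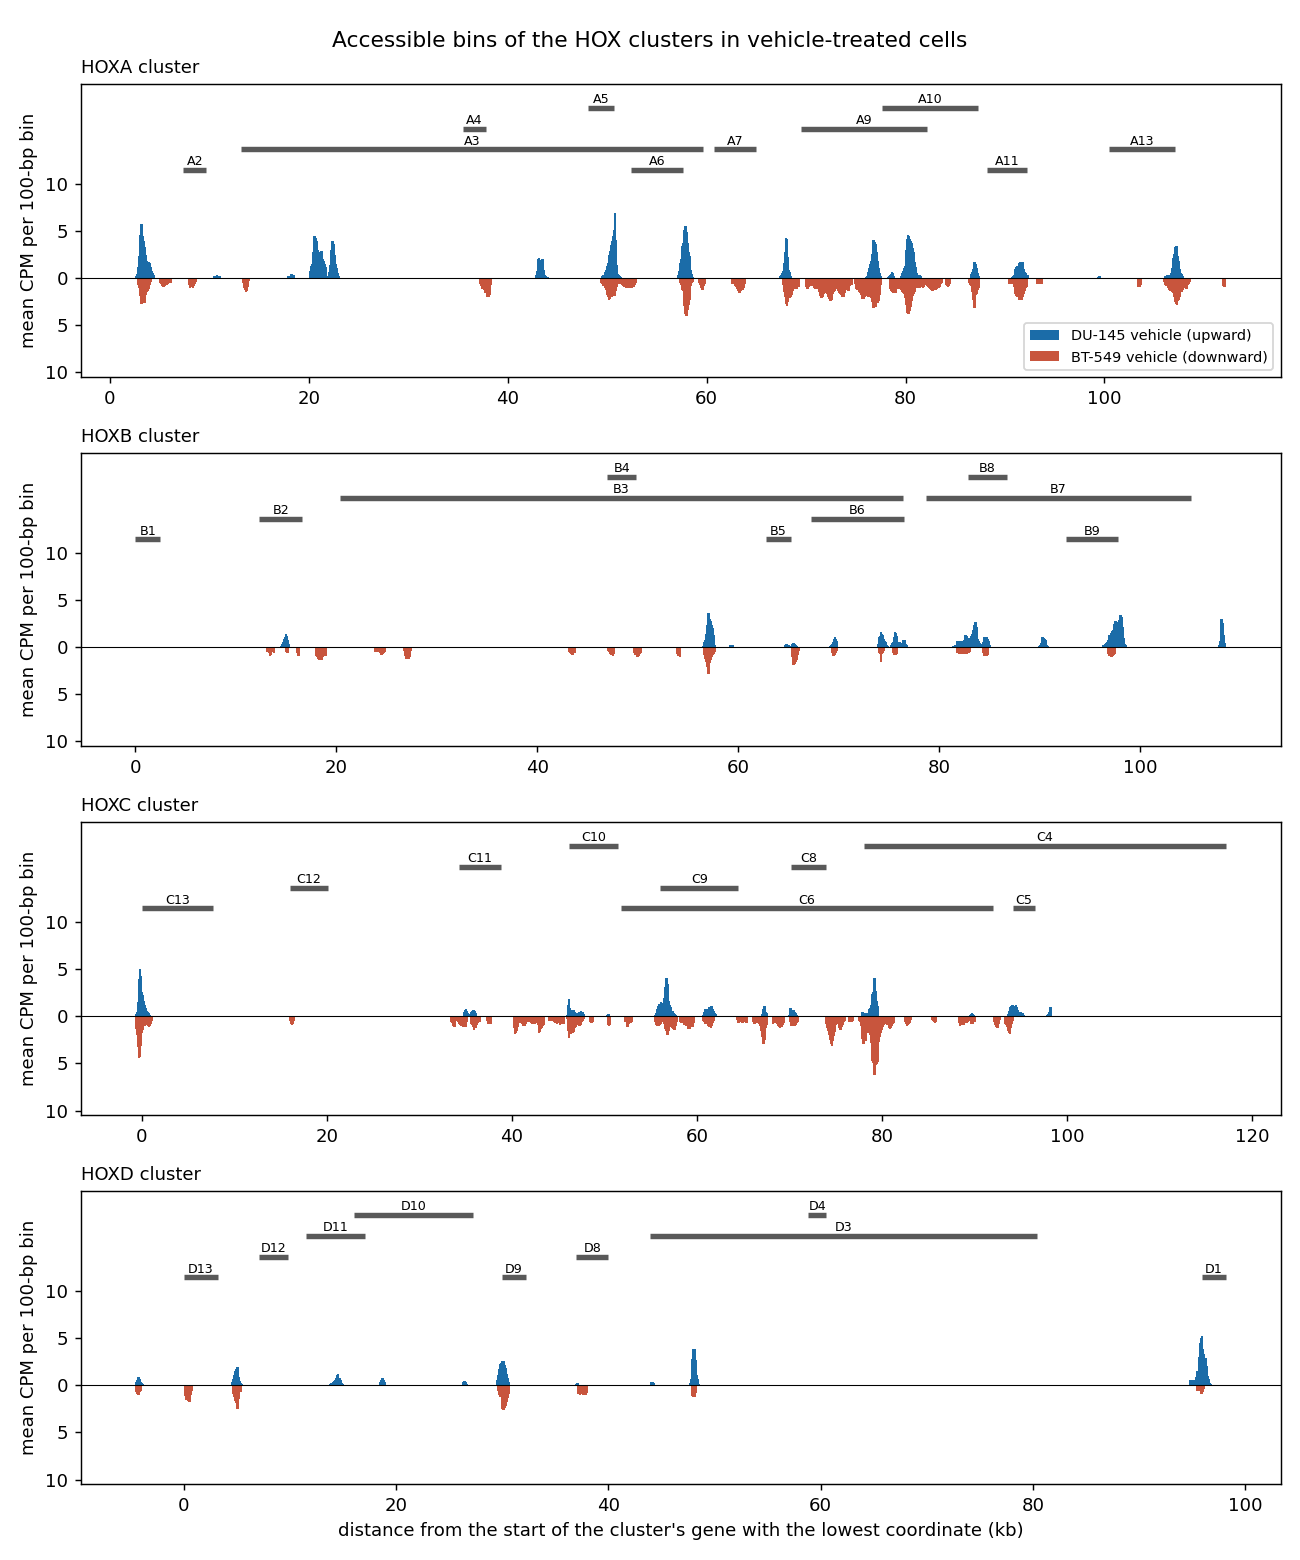
Mean coverage of each accessible 100-bp bin in vehicle cells (CPM, DU-145 upward, BT-549 downward) against the distance in kb from the start of the gene with the lowest coordinate in each cluster, with the bodies of the genes reported as grey lines above. BT-549 bins made up 28.3% of the HOXC and 28.6% of the HOXA windows against 12.1% and 17.8% in DU-145 cells, the highest HOXC bin of BT-549 cells reached 6.216 CPM, whereas the highest HOXD bin of DU-145 cells, at HOXD1, reached 5.282 CPM.

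Not every member had accessible chromatin. In DU-145 cells, 33 of the 38 windows held a bin, and HOXA4, HOXB1, HOXB4, HOXC12 and HOXD4 held none. In BT-549 cells, 35 windows held a bin, and HOXB1, HOXD4 and HOXD11 held none. In 32 windows there were bins that both tables share. HOXB1 and HOXD4 thus had no accessible bin in either line.

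Per kb of window, the highest 5 levels in DU-145 cells were those of HOXA genes, whereas in BT-549 cells HOXC8, HOXC6 and HOXC9 followed HOXA9 and HOXA10. In DU-145 vehicle cells, HOXA6 was the most accessible, with 5.154, 5.41 and 5.218 CPM per kb, followed by HOXA10 with a mean of 4.82 and HOXA5 with a mean of 4.39 CPM per kb. HOXA13, a posterior gene of limb and genital tract development, was the lowest HOXA gene with bins, with 1.475, 1.601 and 1.581 CPM per kb. In HOXB, the highest was HOXB7 (2.693, 2.849 and 3.19 CPM per kb) and the lowest HOXB2 (0.5171, 0.4475 and 0.4557 CPM per kb). The libraries of HOXB7 were all above those of HOXB2. In HOXC, HOXC9 was the highest (2.415, 2.5 and 2.405 CPM per kb) and HOXC11 the lowest (0.4745, 0.5258 and 0.3229 CPM per kb). In HOXD, HOXD1 was the highest (3.006, 3.319 and 2.883 CPM per kb) and HOXD8 the lowest of all HOX windows with bins (0.1536, 0.1312 and 0.1331 CPM per kb). Most neighbors in this order could not be separated, since the libraries of only 5 of the 32 neighboring pairs did not overlap.

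The order in BT-549 vehicle cells placed HOXA9 first, with 10.1, 9.883 and 10.91 CPM per kb. HOXA9 is a leukemia-associated gene of blood progenitors. HOXA10, a gene of uterine development whose window shares bins with it, had 9.67, 9.56 and 10.82 CPM per kb and overlapped with it. HOXA4 was the lowest HOXA gene, with 0.9598, 1.107 and 1.379 CPM per kb. HOXC8 was the highest HOXC gene, with 7.413, 7.441 and 8.041 CPM per kb, and did not overlap with HOXA10 or with the next gene, HOXC6. HOXC12 was the lowest HOXC gene, with 0.2028, 0.228 and 0.3161 CPM per kb. HOXB genes were low throughout, from HOXB4 (1.414, 1.565 and 1.362 CPM per kb) to HOXB9 (0.3598, 0.4424 and 0.3904 CPM per kb). HOXD genes ran from HOXD13 (1.917, 1.595 and 1.959 CPM per kb) to HOXD3, the lowest HOX window with bins (0.09422, 0.1133 and 0.07898 CPM per kb). In this line, 12 of the 34 neighboring pairs did not overlap.

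Between the lines in vehicle, HOXC was less accessible in DU-145 than in BT-549 cells, and HOXD1 and HOXD3 were more accessible. In bins that both tables share, 13 of 32 HOX windows were higher in DU-145 cells at an adjusted p under 0.05 and 10 were lower, against 38.5% higher and 37.8% lower over all 15175 windows tested. The 13 higher windows were 6 of 10 in HOXA, 5 of 7 in HOXB and 2 of 7 in HOXD, and none of 8 in HOXC. The 10 lower windows were 6 of 8 in HOXC, 2 in HOXA, 1 in HOXB and 1 in HOXD. The median log2 fold change of the HOX windows was 0.0709, against -0.00013 over all windows. Both shares were close to those of all genes, so that the HOX genes as a whole were not set apart by the number of calls.

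HOXD1 was the member with the largest difference in favor of DU-145 cells. Its window had 36.76, 38.73 and 31.53 CPM in DU-145 and 6.27, 6.422 and 5.151 CPM in BT-549 vehicle cells. Every DU-145 library was far above every BT-549 library, and the log2 difference amounted to 2.57 (SE 0.163, adjusted p = 1.33e-14, edgeR). HOXD3, an anterior gene of neck vertebrae, had 19.34, 18.4 and 15.67 CPM in DU-145 and 5.358, 6.423 and 4.515 CPM in BT-549 cells. The groups did not overlap, and the difference was 1.69 on the log2 scale (SE 0.187, adjusted p = 2.4e-09). HOXA3 and HOXA6, which shared the same 33 bins in this comparison and count as 1 measurement, had 102.6, 109.3 and 105.7 CPM in DU-145 and 60.38, 57.71 and 70.17 CPM in BT-549 cells. Their log2 difference was 0.76 (SE 0.08875, adjusted p = 7.168e-09), although in bins within 1 kb of the HOXA3 start sites alone it was -0.81 (adjusted p = 0.27). HOXA2, a gene of hindbrain and facial patterning, had a log2 fold change of 0.945 (adjusted p = 1.745e-07). Its 13 shared bins all lay at chr7:27095801-27097100, outside its gene body at chr7:27100354-27102686 and away from its start. A neighboring window held the same bins, so that this value is not a measurement of HOXA2 alone.

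HOXC4 and HOXC8 had the smallest adjusted p among the members that were higher in BT-549 cells. The HOXC4 window had 40.17, 39.01 and 40.49 CPM in DU-145 and 86.55, 84.55 and 99.44 CPM in BT-549 cells (log2 fold change -1.18, SE 0.0967, adjusted p = 4.76e-12). HOXC8, a gene of the trunk skeleton, had 19.84, 23.54 and 20.4 CPM in DU-145 and 56.15, 49.19 and 67.49 CPM in BT-549 cells (log2 fold change -1.42, SE 0.126, adjusted p = 2.35e-11). For both genes the groups did not overlap. In bins within 1 kb of the HOXC8 start the log2 fold change was -0.46 (adjusted p = 0.0581). HOXC6, which is often overexpressed in prostate carcinoma, had 111.7, 114.5 and 111.9 CPM in DU-145 and 167.0, 159.6 and 186.6 CPM in BT-549 cells (log2 fold change -0.60, SE 0.0731, adjusted p = 1.64e-08). Its window spans HOXC9, HOXC8 and the start of HOXC4, and in bins within 1 kb of its own start sites the log2 fold change was 0.33 (adjusted p = 0.0141), so that the direction of HOXC6 depended on the bins summed. HOXA11, a gene of the forearm skeleton and uterus, had 27.38, 28.92 and 33.97 CPM in DU-145 and 40.75, 41.03 and 52.38 CPM in BT-549 cells (log2 fold change -0.57, SE 0.125, adjusted p = 0.000152).

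Within HOXA, windows differed in both directions. HOXA2, HOXA3, HOXA5, HOXA6 and HOXA7 were among those higher in DU-145 cells, HOXA10 and HOXA11 were higher in BT-549 cells, and HOXA9 (-0.07, adjusted p = 0.416) and HOXA13 (-0.17, adjusted p = 0.187) did not pass the test. The call of HOXA10 (log2 fold change -0.18, adjusted p = 0.0313) rested on libraries that overlapped, it was lost without DU-145 vehicle replicate 1 or 3 or BT-549 vehicle replicate 3 and with nearest-start bins (adjusted p = 0.6095), and in bins within 1 kb of its start sites the value was 0.05. The call of HOXA7 was lost with nearest-start bins (0.086, adjusted p = 0.5618). In HOXB, HOXB2, HOXB3, HOXB7, HOXB8 and HOXB9 were higher in DU-145 cells, HOXB5 was lower, and HOXB6 (0.12, adjusted p = 0.405) did not pass the test. The groups of HOXB8 overlapped, and its call was lost after removal of the GC trend (adjusted p = 0.06584), with the library sums of each table as library sizes (adjusted p = 0.07656), with start-site bins (adjusted p = 0.1392), with nearest-start bins (adjusted p = 0.1119) and without DU-145 vehicle replicate 3 (0.25, adjusted p = 0.196). In HOXC, HOXC4, HOXC5, HOXC6, HOXC8, HOXC10 and HOXC11 were lower, and HOXC9 (0.02, adjusted p = 0.838) and HOXC13 (-0.09, adjusted p = 0.529) did not pass the test. The call of HOXC10 was lost without DU-145 vehicle replicate 3 (adjusted p = 0.06717) and that of HOXC11 with start-site bins (adjusted p = 0.1675). In HOXD, HOXD8 was lower on 1 shared bin, but this call was lost with loess offsets (-0.042, adjusted p = 0.9476), with DESeq2 (adjusted p = 0.1209) and without DU-145 vehicle replicate 1 or BT-549 vehicle replicate 2 or 3 (to -0.85, adjusted p = 0.2289). The values of HOXD9, HOXD10, HOXD12 and HOXD13 lay between -0.24 and 0.27 without passing the test.

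Over whole clusters, with each bin counted once, HOXC had 165.5, 173.5 and 154.9 CPM in DU-145 and 230.1, 230.0 and 251.2 CPM in BT-549 vehicle cells, a ratio of 0.694. Chromatin 50 kb to 1 Mb beyond HOXC had a ratio of 1.29 in the opposite direction. HOXD had 98.07, 100.9 and 86.2 CPM in DU-145 and 53.12, 44.39 and 59.63 CPM in BT-549 cells, a ratio of 1.81, with a ratio of 1.04 in its flanks. The HOXA ratio was 1.16 with flanks at 0.78, and the HOXB ratio was 1.42 with flanks at 2.21. The libraries of the lines did not overlap in any of the 4 clusters, and the exact two-sided permutation p was 0.1 in each, the smallest that 3 against 3 libraries can give. Copy number differs between cancer lines and is part of each ratio, so that it cannot be told apart from accessibility in these values.

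In single bins, 101 of 361 HOX bins were higher in DU-145 cells and 118 were lower, against 21.3% higher and 40.7% lower over all 321378 bins tested. The median log2 fold change was -0.133 for the HOX bins and -0.386 for all bins, and this split depended on scaling. With TMM factors, which moved the median of all bins to -0.071, 131 HOX bins were higher and 78 lower. With RLE factors they were 131 and 80, with loess offsets 127 and 50, and after removal of the GC trend 109 and 86. They were 80 and 132 when scaled by all bins of each line. The counts over all bins moved too, from 68586 higher and 130811 lower to 95715 and 92861 with TMM factors. With RLE factors these counts were 95200 and 93309, with loess offsets 80602 and 85502, and after removal of the GC trend 91784 and 86224. Scaled by all bins of each line they were 58155 and 148818. By cluster under the library sums, 64 of 126 HOXC bins were lower and 16 higher, 26 of 61 HOXB bins were higher and 5 lower, 15 of 36 HOXD bins were higher and 2 lower, and HOXA was divided with 44 higher and 47 lower of 138.

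The bins with the largest differences, with at most 1 bin per accessible region, lay at varied distances from start sites. At chr2:176188801-176188900, in an exon of HOXD1 and 182 bp downstream of its start, coverage was 4.455, 4.906 and 4.227 CPM in DU-145 and 0.5043, 0.5252 and 0.4801 CPM in BT-549 cells (log2 fold change 3.08, SE 0.281, adjusted p = 1.11e-16). At chr7:27143701-27143800, in an intron of HOXA3 and at -70 bp from the start of HOXA5, a gene of lung development (negative distances are upstream), it was 9.628, 9.153 and 9.321 CPM in DU-145 and 2.638, 2.434 and 1.846 CPM in BT-549 cells (log2 fold change 1.99, SE 0.17, adjusted p = 5.33e-18). At chr2:176140901-176141000, in an intron of HOXD3 and 3994 bp downstream of a HOXD3 start, the log2 difference amounted to 1.96 (SE 0.262, adjusted p = 4.68e-10). In these 3 bins every DU-145 library was above every BT-549 library.

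In the opposite direction, the bin at chr12:54018401-54018500, in an intron of HOXC4 and HOXC6 and 1520 bp downstream of its start, had 0.3268, 0.1829 and 0.5958 CPM in DU-145 and 4.052, 4.759 and 3.845 CPM in BT-549 cells (log2 fold change -3.81, SE 0.315, adjusted p = 9.57e-19). The bin at chr17:48594301-48594400, in an intron of HOXB3 and at -572 bp from the start of HOXB5, differed by -3.08 on the log2 scale (SE 0.429, adjusted p = 1.68e-09). The bin at chr7:27169001-27169100, in an intron of HOXA9 and at -3514 bp from a HOXA9 start, differed by -3.02 on the log2 scale (SE 0.409, adjusted p = 7.3e-10). All 18 shared bins of the accessible region over the HOXC4 start were lower in DU-145 cells, and all 7 of the region over the HOXD1 start were higher. Neighboring bins can be covered by the same fragments, so that the bins of a region are not independent measurements.

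The promoters of HOXD1 and HOXC4 are printed below because they lie in these 2 regions. They are from RefSeq (GRCh38.p14, plus strand), cover 250 bases before to 50 after an annotated start, and have CG steps in capitals, which are the sites of CpG methylation. The HOXD1 promoter lies at chr2:176188418-176188717 and overlaps 4 bins that were higher in DU-145 cells, and the HOXC4 promoter lies at chr12:54016638-54016937 and overlaps 3 bins that were lower.
HOXD1 promoter: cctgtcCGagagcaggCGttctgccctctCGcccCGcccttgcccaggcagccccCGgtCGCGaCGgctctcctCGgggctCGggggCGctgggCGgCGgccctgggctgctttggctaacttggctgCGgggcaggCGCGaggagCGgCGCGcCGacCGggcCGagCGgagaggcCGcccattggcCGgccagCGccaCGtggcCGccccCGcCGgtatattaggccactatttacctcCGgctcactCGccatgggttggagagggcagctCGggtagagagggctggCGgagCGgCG
HOXC4 promoter: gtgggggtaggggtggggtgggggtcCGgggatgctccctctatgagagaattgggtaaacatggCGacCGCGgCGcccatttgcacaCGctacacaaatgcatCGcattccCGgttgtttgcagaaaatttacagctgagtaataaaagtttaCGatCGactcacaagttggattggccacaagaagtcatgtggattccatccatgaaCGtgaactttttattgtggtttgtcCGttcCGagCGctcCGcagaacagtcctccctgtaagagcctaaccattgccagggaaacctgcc
The HOXD1 promoter held 36 CG steps and 74.3% GC, and the HOXC4 promoter 15 CG steps and 51.7% GC. The table matched 20 of the 38 members, and the median of their 26 distinct promoters was 58.0% GC, against 58.7% over 34935 promoters.

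**Figure D2:**
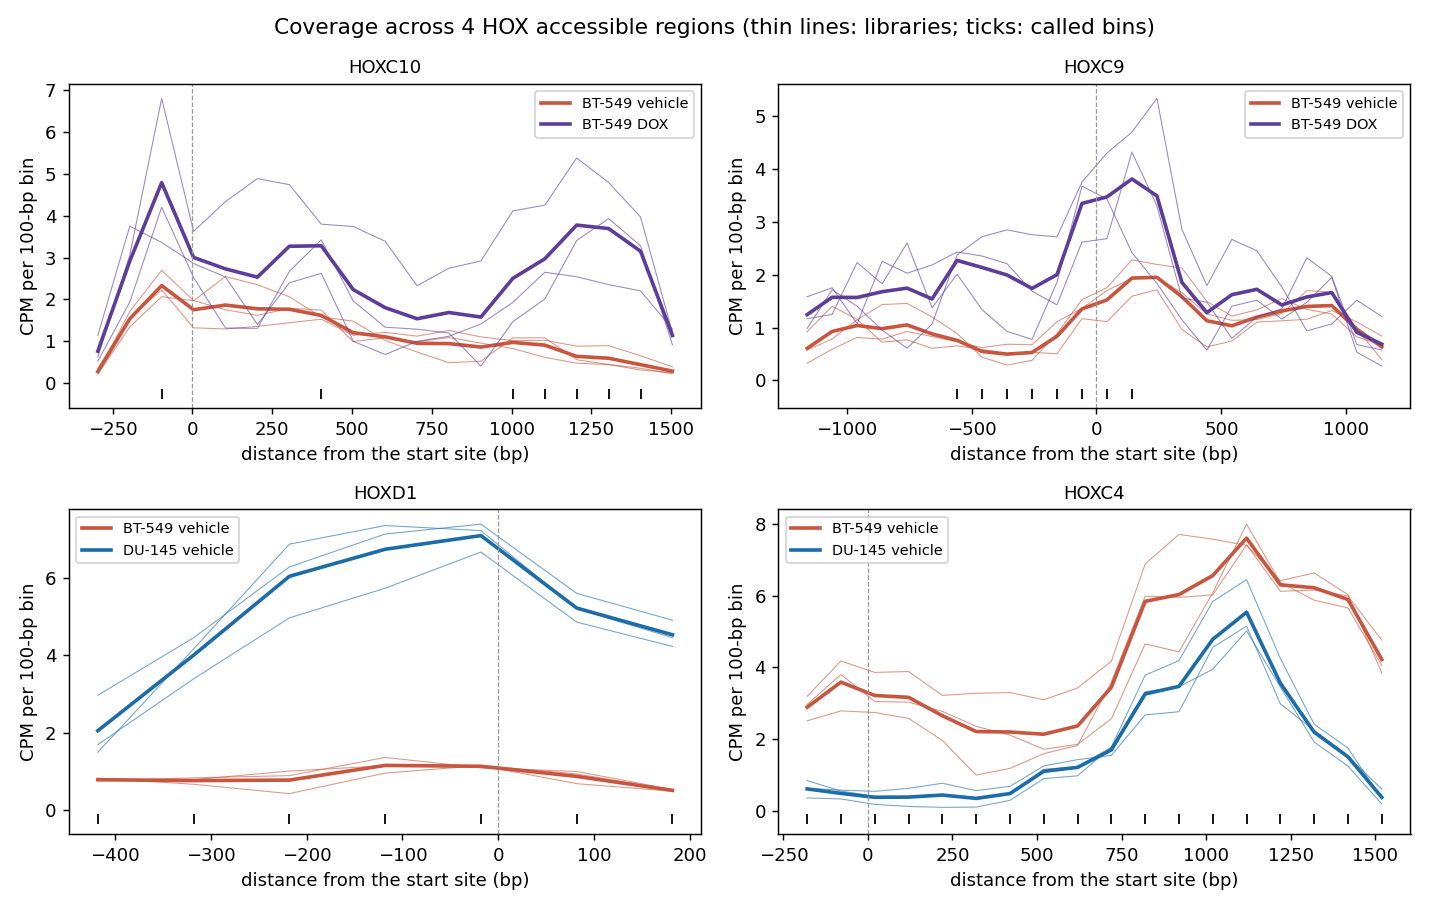
Coverage of 100-bp bins (CPM) against the distance in bp from the start site in the accessible regions at HOXC10 and HOXC9 (BT-549, vehicle and DOX) and at HOXD1 and HOXC4 (vehicle, both lines), with thin lines for libraries, thick lines for means of 3 and ticks for called bins. The HOXD1 region was higher in DU-145 and the HOXC4 region in BT-549 cells, and DOX coverage exceeded vehicle coverage downstream of the HOXC10 start, where the bin at 1204 bp rose from a mean of 0.642 to 3.77 CPM.

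In BT-549 cells, DOX was followed by higher accessibility in parts of HOXA, HOXB and HOXC and by no called change in HOXD. At an adjusted p under 0.05, 13 of 35 HOX windows were higher and 1 was lower, against 17.8% higher and 12.6% lower over all 15797 windows. The higher windows were HOXA3, HOXA5, HOXA6, HOXA9 and HOXA10 in HOXA, HOXB3, HOXB5 and HOXB6 in HOXB, and HOXC6, HOXC9, HOXC10, HOXC11 and HOXC13 in HOXC. The lower window was HOXC12, and none of the 7 HOXD windows was called. The median log2 fold change of the HOX windows was 0.258, against 0.0411 over all windows. With TMM factors 11 windows were higher and 1 was lower, and the calls of HOXA10 (adjusted p = 0.108) and HOXC11 (adjusted p = 0.06866) were lost. Over all windows, 2359 were higher and 2384 lower with these factors.

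HOXC10, a posterior gene of the lumbar spine and hindlimb, changed most firmly. Its window had 69.78, 72.81 and 75.73 CPM in vehicle and 120.5, 142.1 and 117.7 CPM in DOX libraries. Every DOX library exceeded every vehicle library, and the log2 difference amounted to 0.80 (SE 0.106, adjusted p = 3.28e-07, edgeR). HOXC13, a gene of hair and nail formation, rose from 28.55, 33.21 and 31.4 CPM to 51.06, 50.87 and 54.02 CPM (log2 fold change 0.74, SE 0.147, adjusted p = 0.000166). HOXA5 rose from 40.45, 35.01 and 44.37 CPM to 57.98, 61.02 and 63.95 CPM (log2 fold change 0.62, SE 0.138, adjusted p = 0.000726). HOXC6 rose from 267.8, 273.6 and 281.3 CPM to 332.5, 334.4 and 362.7 CPM (log2 fold change 0.33, SE 0.0733, adjusted p = 0.000791). In these 4 genes the groups did not overlap, and each of the 4 calls was kept under every alternative that was tried.

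HOXC12 was the exception, with 2.849, 3.205 and 4.443 CPM in vehicle and 2.236, 0.4236 and 0.5387 CPM in DOX libraries (log2 fold change -1.66, SE 0.54, adjusted p = 0.0175). It fell on 5 bins, whose summed bin values were 38.8, 37.4 and 40.6 in vehicle but 5.77, 1.06 and 1.76 in the shallower DOX libraries, and the call was lost with DESeq2 (adjusted p = 0.069) and without vehicle replicate 3 (-1.46, adjusted p = 0.07918), DOX replicate 2 (-1.31, adjusted p = 0.0724) or DOX replicate 3 (-1.32, adjusted p = 0.113). The other higher windows had log2 fold changes from 0.23 in HOXA10 to 0.77 in HOXB5. Those of HOXA9, HOXA10 and HOXC11 were called although their groups overlapped. The call of HOXA9 was lost after removal of the GC trend (adjusted p = 0.05241) and without vehicle replicate 1 or 2 or DOX replicate 1 or 3. Those of HOXA10 and HOXC11 were lost without vehicle replicate 1, DOX replicate 1 or DOX replicate 3, that of HOXA10 also without vehicle replicate 2 and that of HOXC11 also without vehicle replicate 3. With start-site bins the calls of HOXA3 (0.33, adjusted p = 0.509), HOXA10 (0.05, adjusted p = 0.839), HOXB5 (0.62, adjusted p = 0.07638) and HOXC11 (0.22, adjusted p = 0.555) were lost. That of HOXA10 was also lost with RLE factors (adjusted p = 0.09415), loess offsets (0.1162), the GC trend removed (0.1161) and DESeq2 (0.05242). That of HOXC11 was also lost with RLE factors (adjusted p = 0.06289) and loess offsets (0.0852). The call of HOXB6 was lost without vehicle replicate 1 or 2 or DOX replicate 2 or 3 (adjusted p values from 0.05102 to 0.07559). HOXB6 had a value of -0.03 (adjusted p = 0.965) in bins within 1 kb of its start sites, and the calls of HOXA3 (0.10, adjusted p = 0.707), HOXA6 (0.57, adjusted p = 0.509), HOXA10 (0.24, adjusted p = 0.07807), HOXB6 (0.16, adjusted p = 0.697) and HOXC11 (0.37, adjusted p = 0.08934) were lost when each bin was given to the gene with the nearest start site. HOXA4, HOXB4, HOXB7, HOXB8 and HOXC4 had DOX libraries above all vehicle libraries but adjusted p values from 0.05685 in HOXB8 to 0.192 in HOXB7. In HOXD, the values ran from -0.58 in HOXD10 to 0.44 in HOXD3, and the DOX libraries of HOXD10 had 8.974, 3.005 and 21.32 CPM and thus spread widely.

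**Figure D3:**
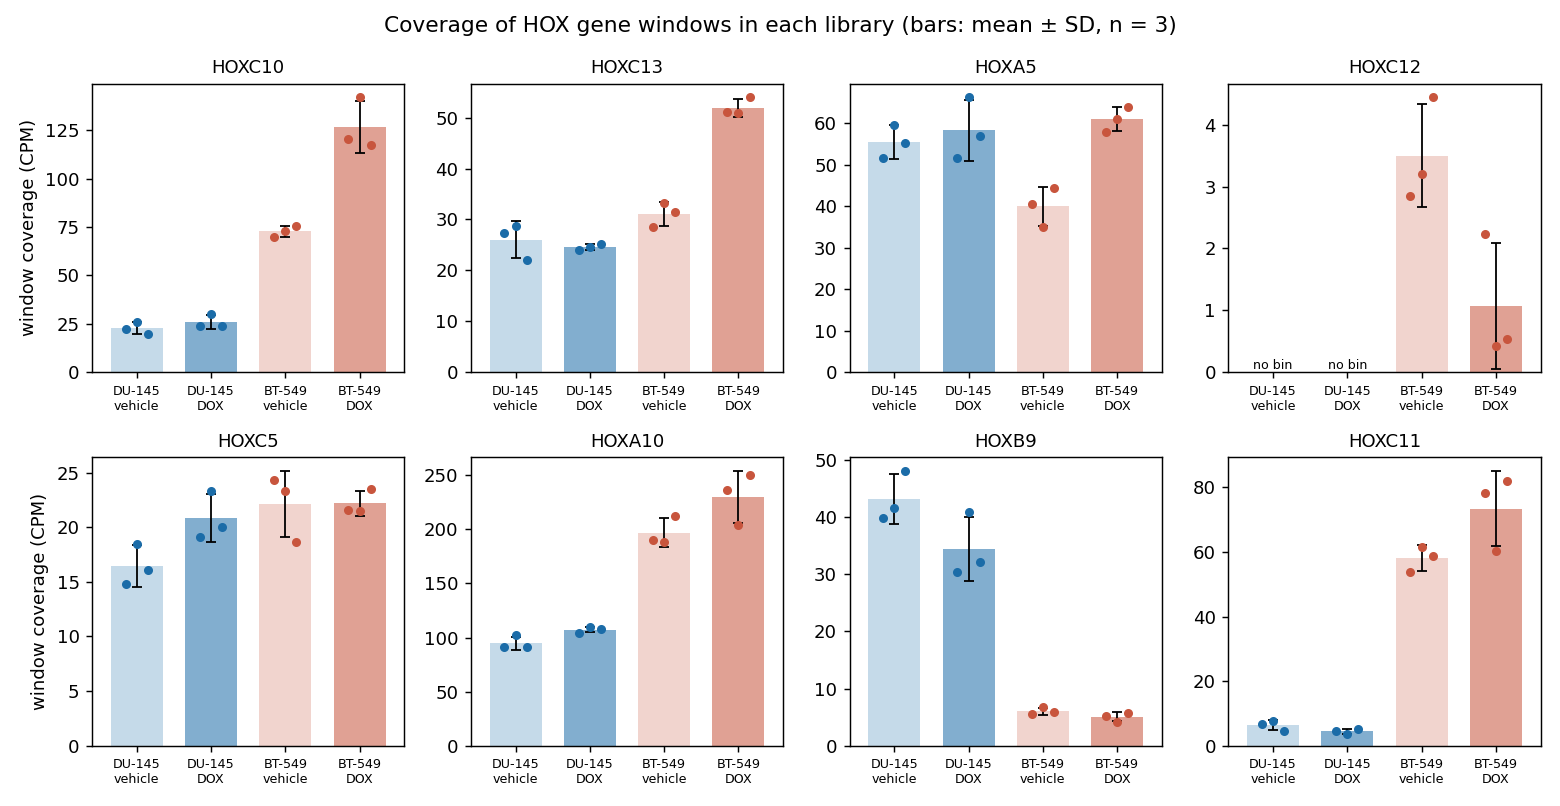
Window coverage (CPM) of 8 HOX genes in every library, with points for libraries and bars for the mean ± SD of 3 replicates. In BT-549 cells the DOX points of HOXC10, HOXC13 and HOXA5 lie above all vehicle points and those of HOXC12 below them, whereas in DU-145 cells the DOX points of HOXC5 and HOXA10 lie above the vehicle points and those of HOXB9 and HOXC11 overlap with them.

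In single bins of BT-549 cells, 38 of 860 HOX bins were higher after DOX and 0 lower by edgeR's quasi-likelihood test, against 5.03% higher and 5.91% lower over all 472935 bins. At an unadjusted p under 0.05 the count was 138 in both directions together, and DESeq2 called 11 higher and 0 lower. DESeq2 called 4.02% of all bins in either direction. The share of higher HOX bins by edgeR, 4.42%, was close to that of all bins, and the median log2 fold change was 0.282 for the HOX bins against -0.0603 over all bins. At the fold of at least 2 and adjusted p under 0.01, 10 HOX bins were higher, 9 in HOXC and 1 in HOXB, against 4.93% of all bins in either direction. By cluster, 25 of the 38 lay in HOXC, 8 in HOXB and 5 in HOXA. They formed 12 regions, and 24 of them lay within 1 kb of a HOX start site. The count moved with single libraries and was 13 without DOX replicate 3, with 10 higher and 3 lower, 20 without DOX replicate 2 and 23 without vehicle replicate 1. It was 22 with the GC trend removed, with 21 higher and 1 lower.

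Of the 38 bins, 8 lay in the region over HOXC9 and 7 in the region over HOXC10. The bin at chr12:53986301-53986400, in an intron of HOXC10 and 1204 bp downstream of its start, had 0.4777, 0.5618 and 0.8848 CPM in vehicle and 3.406, 5.375 and 2.541 CPM in DOX libraries. Called bins were ranked if the mean of their values before scaling was at least 10 in either group. Among them this bin had the largest change, at 2.52 on the log2 scale (SE 0.4, adjusted p = 3.26e-07), and the groups were far apart. The bin at chr12:54014601-54014700, in an intron of HOXC6, had 0.7761, 0.9875 and 0.8805 CPM in vehicle and 1.159, 1.946 and 3.48 CPM in DOX libraries (log2 fold change 1.32, SE 0.426, adjusted p = 0.0291). Its groups did not overlap, but the DOX libraries spread widely, and the call was lost with DESeq2 (adjusted p = 0.123) and without DOX replicate 3 (0.79, adjusted p = 0.5). Before scaling its values were 10.56, 11.53 and 8.05 in vehicle but 2.99, 4.87 and 11.37 in the shallower DOX libraries. The bin at chr12:53995401-53995500, at -58 bp from a HOXC9 start, had 1.361, 1.167 and 1.525 CPM in vehicle and 3.67, 2.613 and 3.747 CPM in DOX libraries (log2 fold change 1.28, SE 0.344, adjusted p = 0.00687). Without DOX replicate 3 its value was 1.20 (adjusted p = 0.0862). Its values before scaling were 18.52, 13.62 and 13.94 in vehicle but 9.47, 6.54 and 12.24 in DOX libraries.

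The intronic sequence of HOXC10 is printed because its 3 bins were all higher after DOX in BT-549 cells. It is from GRCh38, plus strand, chr12:53986301-53986600, again with CG steps in capitals.
HOXC10 intron: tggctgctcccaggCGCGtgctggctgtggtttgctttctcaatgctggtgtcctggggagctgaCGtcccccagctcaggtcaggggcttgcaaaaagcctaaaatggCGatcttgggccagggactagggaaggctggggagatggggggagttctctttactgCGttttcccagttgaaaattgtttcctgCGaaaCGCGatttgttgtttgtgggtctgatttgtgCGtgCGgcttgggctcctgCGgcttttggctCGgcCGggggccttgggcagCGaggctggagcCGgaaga
It held 15 CG steps and 59.0% GC, fewer CG steps than the HOXD1 promoter shown above and as many as the HOXC4 promoter.

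Over whole clusters in BT-549 cells, HOXB had 100.2, 113.5 and 100.1 CPM in vehicle and 130.7, 165.3 and 145.2 CPM in DOX libraries, a ratio of 1.41. HOXC had 377.7, 397.3 and 397.1 CPM in vehicle and 501.9, 495.5 and 532.1 CPM in DOX libraries, a ratio of 1.31. HOXA had 439.8, 419.0 and 485.0 CPM in vehicle and 545.1, 498.5 and 538.5 CPM in DOX libraries, a ratio of 1.18. In these 3 clusters every DOX library was above every vehicle library, and the exact two-sided permutation p was 0.1, the smallest possible. HOXD had 60.04, 52.21 and 66.42 CPM in vehicle and 60.79, 41.56 and 58.2 CPM in DOX libraries, a ratio of 0.899 (exact permutation p = 0.6). The flanks beyond the clusters had ratios of 1.12 at HOXB, 0.969 at HOXC, 0.907 at HOXA and 0.87 at HOXD, and their DOX and vehicle libraries overlapped.

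In DU-145 cells, few HOX windows changed after DOX. At an adjusted p under 0.05, 2 of 33 windows were higher and 3 were lower, against 19.1% higher and 31.1% lower over all 17114 windows. The median log2 fold change was 0.0696 for the HOX windows and -0.0649 for all windows. With TMM factors 4 windows were higher and 2 lower, with RLE factors 4 and 1, with loess offsets 4 and 1, and after removal of the GC trend 6 and 1. Over all windows, 3266 were higher and 5330 lower, against 4002 and 4152 with TMM factors. With RLE factors they were 4063 and 4037, with loess offsets 3988 and 3802, and after removal of the GC trend 3982 and 4000. The HOX count was 1 without vehicle replicate 1, 1 without vehicle replicate 3, 2 without DOX replicate 2 and 2 without DOX replicate 3, so that it rested on single libraries.

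HOXC5 had 14.77, 18.49 and 16.09 CPM in vehicle and 19.12, 23.29 and 20.06 CPM in DOX libraries, which did not overlap (log2 fold change 0.33, SE 0.126, adjusted p = 0.0267, edgeR). HOXA10 had 91.25, 101.9 and 91.02 CPM in vehicle and 104.4, 109.4 and 107.8 CPM in DOX libraries (log2 fold change 0.18, SE 0.0681, adjusted p = 0.0308). Both calls were lost without vehicle replicate 1, vehicle replicate 3 or DOX replicate 2, that of HOXA10 also without DOX replicate 3, with adjusted p values from 0.06149 to 0.152, and with start-site bins (adjusted p = 0.1268 for HOXC5 and 0.1049 for HOXA10). Of the lower windows, HOXB9 (-0.32, adjusted p = 0.0118) and HOXC11 (-0.55, adjusted p = 0.0245) were called with overlapping groups. The call of HOXB9 was lost after removal of the GC trend (-0.19, adjusted p = 0.1128), with loess offsets (adjusted p = 0.05424) and without vehicle replicate 3, DOX replicate 1 or DOX replicate 3 (adjusted p values from 0.06013 to 0.08386). The call of HOXC11 was lost with RLE factors (adjusted p = 0.05011), with DESeq2 (adjusted p = 0.06166) and without vehicle replicate 1, vehicle replicate 2 or DOX replicate 2 (log2 fold changes from -0.51 to -0.39). The remaining 28 windows ranged from -0.20 in HOXA2 to 0.27 in HOXB2 and did not pass the test.

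In single bins of DU-145 cells, 23 of 587 HOX bins were higher and 34 lower after DOX, against 22.8% higher and 11.8% lower over all 709226 bins. The HOX shares were 3.92% and 5.79%, and the median log2 fold change was 0.0667, against 0.201 over all bins. At the fold of at least 2 and adjusted p under 1e-05, 0 HOX bins passed with edgeR, against 6.58% of all bins, while 93 HOX bins had an unadjusted p under 0.05 and DESeq2 at an adjusted p under 0.05 called 0 higher and 10 lower. Over all bins DESeq2 called 17.1%, with 79040 higher and 42234 lower. The split of the HOX bins depended on scaling. TMM factors, which moved the median of all bins to 0.0658, gave 8 higher and 57 lower, RLE factors 8 and 58, and loess offsets 8 and 47. Over all bins the counts went from 161406 higher and 83619 lower to 135377 and 113565 with TMM factors. With RLE factors they were 131580 and 115547, and with loess offsets 104583 and 84977. Without vehicle replicate 2 the HOX bins called were 18 higher and 18 lower, and without DOX replicate 3 they were 14 higher and 20 lower.

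Called DU-145 bins were ranked if their mean before scaling was at least 10 in either group and the groups did not overlap, with at most 1 bin taken per accessible region. The largest increases were at chr7:27170401-27170500 in an intron of HOXA9 (log2 fold change 1.65, SE 0.433, adjusted p = 0.00164), at chr12:53939701-53939800 in an intron of HOXC13 (1.44, SE 0.457, adjusted p = 0.00946) and at chr2:176098001-176098100, at -1744 bp from the start of HOXD12 (1.21, SE 0.415, adjusted p = 0.0179). None of these calls held with DESeq2. The largest decreases were at chr12:53973701-53973800 in an exon of HOXC11 (-1.08, SE 0.37, adjusted p = 0.0171), at chr17:48636601-48636700 between genes, at -10292 bp from the start of HOXB9 (-0.85, SE 0.184, adjusted p = 0.000139), and at chr7:27115301-27115400 in an intron of HOXA3 (-0.79, SE 0.172, adjusted p = 0.000142). The HOXC11 bin lost its call with DESeq2 (adjusted p = 0.2026), after removal of the GC trend (adjusted p = 0.05003), without vehicle replicate 2 (adjusted p = 0.2577) and without DOX replicate 3 (adjusted p = 0.09199). Of the 34 lower bins, 11 lay in introns and an exon of HOXA3, in 2 neighboring regions. At the cluster level the DOX and vehicle libraries overlapped in all 4 clusters, with ratios of 0.984 in HOXA, 0.929 in HOXB, 1.01 in HOXC and 1.05 in HOXD.

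**Figure D4:**
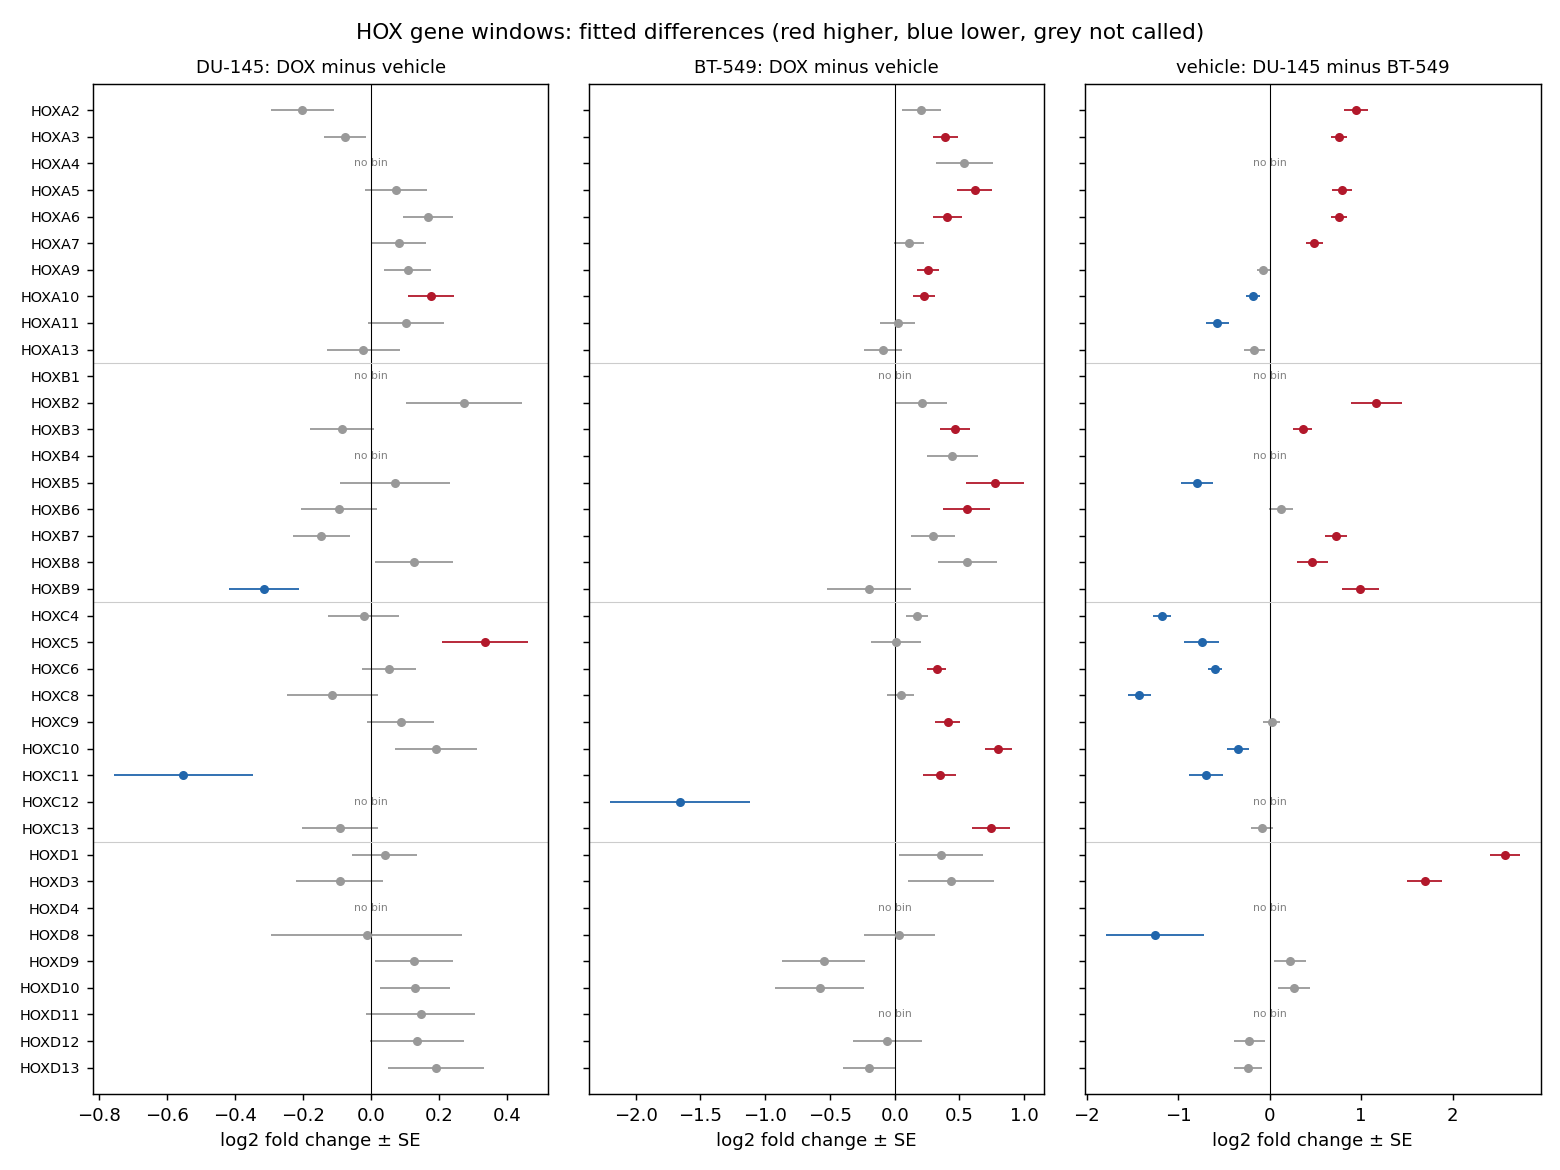
Fitted log2 fold change ± SE (edgeR) of the HOX gene windows reported for DOX against vehicle in DU-145, DOX against vehicle in BT-549 and DU-145 against BT-549 in vehicle, in red for higher, blue for lower and grey for not called. The BT-549 DOX panel holds 13 red points and 1 blue point, the DU-145 DOX panel 2 red points and 2 blue points, and in the comparison of the lines the HOXC genes are blue or grey.

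The DOX effect itself was compared between the lines by the interaction of line and DOX in shared bins. It was more positive in BT-549 than in DU-145 cells in 3 of 32 windows and more negative in 0, against 18.2% and 15.0% of the 15175 windows, and 5 HOX windows had an unadjusted p under 0.05. The 3 windows were HOXC10, HOXC11 and HOXC13, which lie at the posterior end of HOXC, where HOXC12, between HOXC11 and HOXC13, has no shared bin. In shared bins, HOXC10 had 29.12, 34.6 and 26.63 CPM in DU-145 vehicle and 34.95, 43.45 and 33.78 CPM in DU-145 DOX cells, against 37.02, 38.6 and 40.51 CPM and 65.61, 106.3 and 67.22 CPM in BT-549 cells. The difference in log2 fold change was 0.73 (SE 0.204, adjusted p = 0.00488, edgeR), and the call was lost without BT-549 DOX replicate 2 (0.48, adjusted p = 0.05892). The count was 5 without DU-145 DOX replicate 2 or BT-549 DOX replicate 1, all more positive in BT-549, and 5 without BT-549 vehicle replicate 2 or BT-549 DOX replicate 3, with 3 more positive and 2 more negative. HOXC13 had mean values of 34.97 and 35.95 CPM in DU-145 and 37.35 and 59.89 CPM in BT-549 cells, a difference of 0.65 (SE 0.1835, adjusted p = 0.00506). HOXC11 had mean values of 7.81 and 5.945 CPM in DU-145 and 12.88 and 19.96 CPM in BT-549 cells, a difference of 1.05 (SE 0.315, adjusted p = 0.00838). For the remaining 29 windows the test did not separate the lines, HOXA5 included (difference 0.31, SE 0.175, adjusted p = 0.174).

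Peaks at start sites gave another reading, from the peak list of each library. A MACS2 peak overlapped the 1 kb on either side of a start site in 24, 26 and 23 of the 38 genes in DU-145 vehicle and in 25, 25 and 24 in DU-145 DOX libraries (exact permutation p = 1.0). In BT-549 cells the counts were 33, 31 and 32 in vehicle and 21, 22 and 18 in DOX libraries (exact permutation p = 0.1, the smallest possible). The fall in BT-549 DOX libraries went with fewer peaks in all, 30450 to 39837 against 65204 to 93929, and the part of depth was not tested. The line difference in vehicle also had an exact p of 0.1.

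Of the 38 genes, 10 had a start-site peak in all 12 libraries, among them HOXA5, HOXA10, HOXA11, HOXA13, HOXC4, HOXC6, HOXC9, HOXC10 and HOXC13. HOXB1, HOXD4, HOXD10 and HOXD12 had none in any library. In 6 genes, HOXA4, HOXA7, HOXA9, HOXB2, HOXB4 and HOXC12, peaks were found in BT-549 but in no DU-145 library, and HOXA4 and HOXA9 had them in all 6 BT-549 libraries. No gene had start-site peaks in DU-145 libraries alone, although HOXD11 had them in all 6 DU-145 and in 1 BT-549 library. After DOX in BT-549 cells, HOXA2, HOXB2, HOXB6, HOXB8, HOXB9 and HOXC12 went from 3 of 3 libraries with a peak to 0 of 3.

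**Figure D5:**
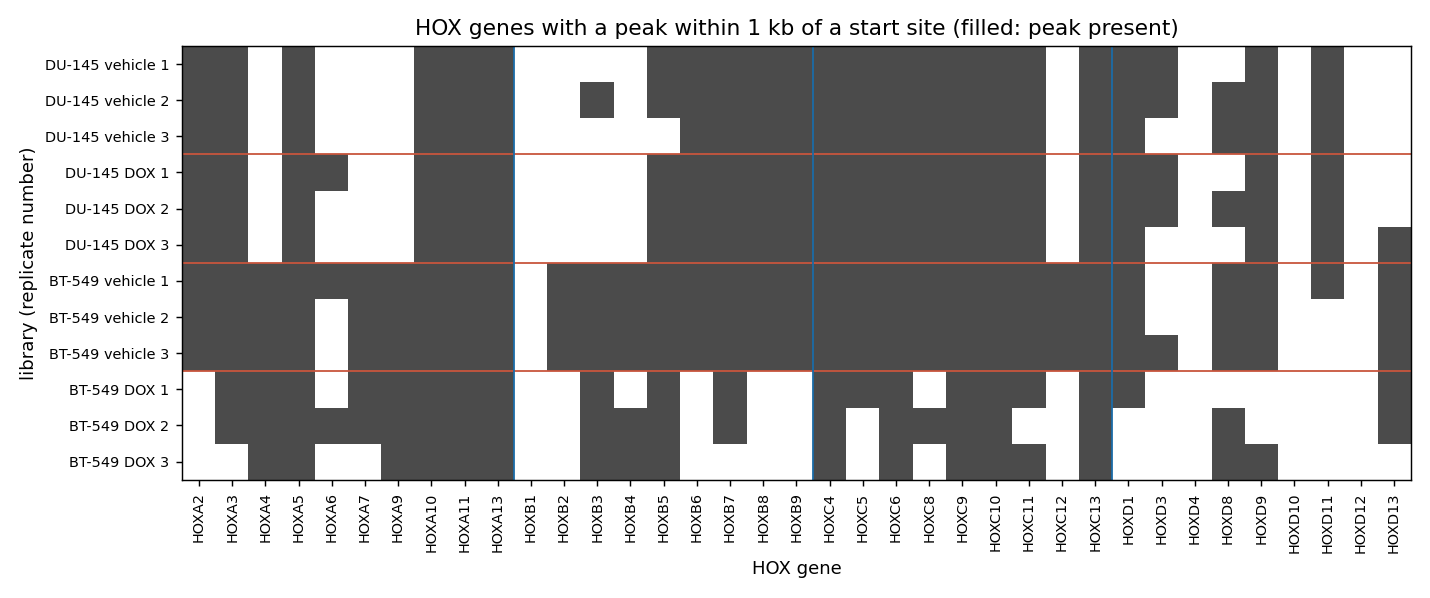
Presence (filled) of a MACS2 peak within 1 kb of a start site for the HOX genes reported (columns) in each of the 12 libraries (rows). The BT-549 DOX rows hold fewer filled cells than the BT-549 vehicle rows, with 18 to 22 against 31 to 33 when all 38 genes are counted, and the DU-145 rows lie between them with 23 to 26.

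The place of the strongest peak of a cluster was shared by all libraries of a line in some clusters only. In all 6 DU-145 libraries, the highest HOXA peak had its summit at -105 to -43 bp from the HOXA5 start, with a fold enrichment over local background of 51.56 to 76.52. The highest HOXC peak was at HOXC13 with 37.07 to 60.24, and the highest HOXD peak was at HOXD1 with 42.2 to 61.05. In all 6 BT-549 libraries, the highest HOXC peak was at HOXC4, with its summit 986 to 1115 bp downstream of the start. Its fold enrichment was 32.93, 33.08 and 28.52 in vehicle and 15.1, 23.08 and 21.73 in DOX libraries. In the remaining cases the place moved between libraries. In BT-549 cells the highest HOXA peak was nearest to a start of HOXA10, HOXA3 or HOXA9, the highest HOXD peak to HOXD12 or HOXD9, and the highest HOXB peak to HOXB3 or HOXB4, and in DU-145 cells the highest HOXB peak was at HOXB9 in vehicle replicate 1 and at HOXB3 in the remaining libraries. For the HOXC4 peak of BT-549 cells, the percentile among the peaks of its own library was 92.2, 91.0 and 89.7 in vehicle and 87.9, 93.1 and 91.2 in DOX libraries, and these overlapped.

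Noncoding RNA genes inside the clusters share bins with their coding neighbors, and ATAC-seq has no strand, so that their signals cannot be told apart from those of the coding genes. At the start of HOXC-AS3, which faces HOXC10, coverage was 30.41, 30.9 and 29.59 CPM in BT-549 vehicle and 55.76, 80.3 and 47.8 CPM in BT-549 DOX libraries. At HOXC13-AS it was 18.8, 20.34 and 20.87 CPM and 38.16, 36.67 and 38.99 CPM, respectively. At both the DOX libraries were above all vehicle libraries. HOTAIR, a long noncoding RNA known for binding Polycomb complexes, had 22.17, 24.07 and 25.28 CPM in BT-549 vehicle and 36.19, 26.04 and 32.11 CPM in BT-549 DOX libraries. In DU-145 cells, where its start holds the same bins as the HOXC11 window, it had 6.889, 7.634 and 4.688 CPM in vehicle and 4.644, 3.554 and 5.194 CPM after DOX. HOXA-AS2 had 60.38, 60.21 and 57.31 CPM in DU-145 vehicle and 37.02, 42.97 and 43.78 CPM in DU-145 DOX libraries, and a mean of 2.549 CPM in BT-549 vehicle cells. HAGLR, whose start holds the same bins as the HOXD1 window, had means of 37.57 CPM in DU-145 and 4.861 CPM in BT-549 vehicle cells. HOXB-AS2, HOXB-AS4 and HAGLROS had no accessible bin at their starts in either line.

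The clusters also hold miRNA genes whose targets include HOX transcripts. The start of MIR196B, inside the annotated body of HOXA9, had 40.57, 41.54 and 44.66 CPM in BT-549 vehicle and 62.89, 48.06 and 66.59 CPM in BT-549 DOX libraries, and a mean of 26.2 CPM in DU-145 vehicle cells. MIR196A2, between HOXC10 and HOXC9 and inside the annotated body of HOXC6, had no accessible bin in DU-145 cells and 6.269, 5.773 and 7.467 CPM in BT-549 vehicle cells. MIR10A, MIR10B and MIR196A1 had no accessible bin in either line. The mature sequences from RefSeq (GRCh38.p14) are shown with the seed, bases 2 to 8, in capitals, to show which of these loci encode the same seed.
miR-196a-5p: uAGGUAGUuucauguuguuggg
miR-196b-5p: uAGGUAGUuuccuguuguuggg
miR-10a-5p: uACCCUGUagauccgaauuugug
The 2 miR-196 sequences had the same seed and 1 difference, A12C, counted from 1 at the 5′ end with miR-196a-5p first. The MIR196B and MIR196A2 loci thus encode the same seed, and miR-10a-5p has another. Sequences of the MIR196A1 and MIR10B loci, which had no accessible bin either, were not compared, so that no link between seed and accessibility can be read here.

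The sequence of the HOX bins was read beside that of all accessible bins. The AP-1 sequence TGAGTCA, or TGACTCA on the other strand, lay within 50 bp of 0.681% of the DU-145 HOX bins, against 9.73% of all DU-145 bins. In BT-549 cells the shares were 0.93% and 6.12%, and among bins in both tables they were 0 of 361 and 6.43%. The HOX bins with it were 4 in DU-145 and 8 in BT-549 cells, and none of the HOX bins called after DOX held it. With so few such bins, this does not set the called bins apart. In the comparison of the lines no shared HOX bin held it, so that no called bin could. The median GC content of the BT-549 HOX bins was 58.5%, against 53.0% over all BT-549 bins. Of the 26 HOX promoters, 0 held the AP-1 sequence, against 4.96% of 34935 promoters. The PBX-HOX sequence TGATNNAT, or ATNNATCA on the other strand, was in 3 of the 26, those of HOXA2, HOXB1 and HOXD11, against 7.42% of all promoters. A match of letters is a description of the sequence and not a site of binding.

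Genes that act with or upon HOX genes were read in the same way, in their own windows. Over all windows, 17.8% rose and 12.6% fell after DOX in BT-549 cells, 19.1% rose and 31.1% fell in DU-145 cells, 18.2% were more positive and 15.0% more negative in BT-549 by the interaction test, and 38.5% were higher and 37.8% lower in DU-145 than in BT-549 vehicle cells. Among 17 regulators of HOX chromatin, 9 rose and 0 fell after DOX in BT-549 cells, 10 having an unadjusted p under 0.05 in either direction, with a median log2 fold change of 0.504 against 0.0411 over all windows. Those with the smallest adjusted p were ASXL1, a Polycomb-associated factor (0.60, adjusted p = 4.23e-07), the histone demethylase KDM6B (0.41, adjusted p = 1.82e-05), the Polycomb subunit BMI1 (0.51, adjusted p = 0.000149) and CTCF (0.53, adjusted p = 0.000316). In DU-145 cells 1 rose and 7 fell, led by the cohesin subunit RAD21 (-0.80, adjusted p = 2.4e-10), CTCF (-0.47, adjusted p = 1.05e-07), the Polycomb subunit EED (-0.41, adjusted p = 0.000162) and BMI1 (-0.44, adjusted p = 0.000236), and the share that fell was near that of all windows, with a median of -0.0317 against -0.0649. By the interaction test, the DOX effect was more positive in BT-549 cells in 7 of the 17 and more negative in 0. In the comparison of the lines, 4 were higher and 6 lower in DU-145 cells.

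Of the HOX cofactors and their relatives, 2 of 10 tested rose and 1 fell in BT-549 cells, against 17.8% and 12.6% of all windows. PKNOX1 rose by 0.72 (adjusted p = 1.63e-06) and PBX3 by 0.50 (adjusted p = 0.000114) on the log2 scale, and MEIS1 had -0.32 (adjusted p = 0.0352). In DU-145 cells 2 of 9 rose and 4 fell, against 19.1% and 31.1% of all windows. PBX4 (0.40, adjusted p = 0.000964) was among those that rose. PBX3 (-0.245, adjusted p = 0.0013), PKNOX1 (-0.25, adjusted p = 0.00135) and MEIS2 (-0.28, adjusted p = 0.00234) were among those that fell. Of 9 cofactors and relatives the interaction test called 2 in each direction, and between the lines 4 were higher and 2 lower in DU-145 cells. Retinoic acid induces HOX genes, and of its receptors and enzymes 0 of 11 were called in BT-549 cells by edgeR, with 0 also at an unadjusted p under 0.05, while 4 of 13 rose and 1 fell in DU-145 cells, with ALDH1A3, which makes retinoic acid, at 0.60 (adjusted p = 2.8e-07) and the receptor RARA at -0.37 (adjusted p = 1.34e-05). The interaction was called in 3 of 11, all more negative in BT-549 cells, and 7 of 11 were higher and 1 lower in DU-145 than in BT-549 vehicle cells. Of the related homeobox genes, 1 of 8 rose in each line after DOX, GBX2 in DU-145 and MNX1 in BT-549 cells, and 0 of 6 differed in the interaction test. In the comparison of the lines, 3 of 6 were higher and 1 lower in DU-145 cells.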

How the data were processed

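The 12 libraries were assigned to DU-145 or BT-549 and to Doxminus or Doxplus from their titles. Per the labels and the methods, the authors aligned reads to GRCh38 with BWA, removed duplicates with Picard and called peaks per library with MACS2 2.2.7.1 at a q-value of 0.05. They merged accessible regions found in at least 3 replicates and split them into 100-bp bins. The deposited bin values are estimated counts, each the per-base average of fragment coverage in its bin, without normalization. In the peak lists the authors give a fold enrichment and the −log10 of p and q. Replicates are described as biologically independent. No pair of replicates shared more than 1.65% of bin values.

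Bin values were summed over gene windows of GENCODE v44 (GRCh38), rounded and tested with edgeR 4.0.16 (R 4.3.3, quasi-likelihood test, robust, two-sided, column sums as library sizes, total of at least 10, Benjamini-Hochberg over all features). Calls used an adjusted p of 0.05. The design assumed whole counts. The lines were compared over 321392 shared bins. Values in CPM are per 1000000 of the column sum. Cluster sums and peak counts were compared by exact permutation tests. The members and lists were chosen with earlier results of these data known. Genes described in full were up to 4 per direction with the smallest adjusted p among called genes whose groups did not overlap. Bins described in full were up to 3 per direction with the largest fold, a mean before scaling of at least 10 in either group, no overlap and at most 1 bin per accessible region. Some genes of the clusters and of the marker lists are not reported here. The scripts were tested on simulated data.

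The alternatives were TMM and RLE factors, 3 iterations of loess offsets, removal of the GC trend in 50 strata, no filter, filterByExpr, DESeq2 1.42.0, the replicate number as a block, start-site or nearest-gene bins, other peak rules and leaving out each library. Whether equal replicate numbers mark a pairing cannot be told from 3 replicates. The correlations of deviations between equal numbers were between -0.0228 and 0.194 in DU-145 and between -0.0103 and 0.145 in BT-549. Across the lines they were between -0.0844 and 0.0719. The depth of the BT-549 DOX libraries limits the precision there.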

Additional observations from a re-analysis of the deposited data

Results flagged for a closer look

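The DOX effect differed between the lines, by the test of the interaction of line and DOX, in 3 of 32 HOX windows. Over all 15175 windows, 18.2% were more positive and 15.0% more negative in BT-549 cells. On the log2 scale, the effect in BT-549 minus that in DU-145 cells was 0.73 for HOXC10, 1.05 for HOXC11 and 0.65 for HOXC13. The HOXC10 call was lost without BT-549 DOX replicate 2 (0.48, adjusted p = 0.05892, edgeR). The groups held 3 libraries each, and single libraries were therefore not tested for standing apart from their group.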

How the results depend on the processing

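Of the counts, cluster sums and peak counts, 86 values stayed near the reported ones under the alternatives that kept all libraries and 28 moved. Of the values for single genes and bins, 544 kept direction and call, 52 kept the direction but lost the call and 4 reversed. The cause was not tested in any of them. With bins within 1 kb of start sites, 3 DU-145 windows were called (0 higher, 3 lower), 9 BT-549 windows (8 and 1) and 14 windows between the lines (8 and 6), of fewer windows tested. The shares over all windows were 47.5%, 25.0% and 74.2%, respectively. DESeq2 called 10 DU-145 bins, 11 BT-549 bins, where 336 had no adjusted p, and 135 bins between the lines (61 higher, 74 lower). Over all bins it called 17.1%, 4.02% and 44.3%, respectively. With the GC trend removed, 22 BT-549 HOX bins were called, against 9.6% of all bins. The reversed values were, with start-site bins, -0.033 for HOXB6 in BT-549 and, between the lines, -0.81 for HOXA3, 0.051 for HOXA10 and 0.33 for HOXC6. In DU-145, the log2 ratio of HOXA was -0.16 with TMM and -0.18 with RLE factors, that of HOXC -0.13 and -0.15, and that of HOXD -0.064 and -0.084. Between the lines, TMM factors, RLE factors and start-site bins gave 0.53, 0.53 and 0.31 for HOXA, 0.82, 0.82 and 0.35 for HOXB, -0.21, -0.21 and -0.36 for HOXC, and 1.18, 1.18 and 1.11 for HOXD. The windows between the lines were 12 higher and 13 lower with the library sums of each table and 12 and 12 with the GC trend removed. The depth of the BT-549 DOX libraries limits what low windows such as HOXC12 can show.

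Whether samples with equal replicate numbers share more than a number cannot be told from 3 replicates. Between DU-145 vehicle and DOX, deviations of replicate 1 correlated at 0.194 with the same number and at most 0.0546 with another. For replicate 3 these values were -0.0228 and 0.169. With the replicate number as a block, the interaction was called in 5 windows (3 more positive, 2 more negative in BT-549), and the DU-145 windows were 7, the BT-549 windows 16, the DU-145 bins 54, the BT-549 bins 34, the line windows 23 and the line bins 222. With the block and the GC trend removed, 13 DU-145 windows (12 higher, 1 lower) and 20 BT-549 bins (18 and 2) were called. The shares over all features there were 51.8% of DU-145 windows and 8.59% of BT-549 bins.

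Leaving out each library in turn gave 1 to 5 DU-145 windows, 34 to 51 DU-145 bins, 10 to 13 BT-549 windows, 13 to 33 BT-549 bins, 20 to 23 line windows, 189 to 201 line bins and 2 to 5 interaction windows. Over all features, 42.4% to 48.5% of DU-145 windows and 27.1% to 31.2% of DU-145 bins were called. In BT-549 they were 21.3% to 28.7% of windows and 6.01% to 9.55% of bins. Between the lines they were 71.8% to 75.0% of windows and 55.2% to 59.2% of bins, and 28.6% to 32.5% of interaction windows.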
